A study of Homo sapiens with 4 samples.

Results

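Peaks of the libraries labelled HNF1 were examined in Caco2 cells at 7 loci of the Wnt pathway and of the intestinal crypt, namely MYC, LGR5, AXIN2, ASCL2, EPHB2, SOX9 and TCF7L2. A peak was a member when its midpoint lay in 1 of these 7 windows, which were set by position in hg19 and together spanned 1718 kb. This gave 8 of the 5060 peaks of replicate 1 and 8 of the 4955 peaks of replicate 2, which form 10 of the 7108 distinct regions of both lists. Caco2 is a human colorectal adenocarcinoma line grown here in low glucose medium with serum, with no further treatment named, and all 4 libraries come from it. Of these, 2 were immunoprecipitations labelled HNF1 and 2 were inputs without antibody, against which the peaks were called. No control genotype or treatment was compared, so the replicate check is whether a peak came back in the second library. The labels do not state whether separate cultures were used, so differences between the replicates may be technical only. Titles and antibody field name HNF1, whereas the extraction text names FOXA2. The catalogue number beside the HNF1 name is, to general knowledge, that of an antibody sold against FOXA2, which was not checked here. Which of the factors the peaks belong to was not tested.

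In canonical Wnt signalling, a ligand on the cell surface spares beta-catenin from breakdown, and beta-catenin then enters the nucleus and activates genes together with TCF/LEF proteins. In the intestine this pathway is highest at the crypt base, where it keeps stem cells dividing, and most colorectal cancers activate it, commonly by loss of APC.

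Peaks were called in both libraries at 4 of the 7 loci, LGR5, AXIN2, SOX9 and MYC. LGR5 had 3 shared regions, and AXIN2, SOX9 and MYC had 1 each. TCF7L2 had a peak in replicate 2 alone, and ASCL2 and EPHB2 had no called peak in either list. The windows ran from 104 kb at ASCL2 to 504 kb at MYC. How often windows of such sizes elsewhere hold a shared region was not counted. A shared region is one where peaks of the 2 lists overlap by at least 1 bp. A partner in replicate 2 was found for 6 of the 8 window peaks of replicate 1, or 75% (95% Clopper-Pearson interval 34.9% to 96.8%, counting error only), against 57.5% of the whole list. For replicate 2 the share was also 6 of 8, against 58.6% of its whole list. Both shares rest on the same 6 pairs, so the second is not a separate observation. The intervals treat peaks as independent, although LGR5 supplied 4 of the 8 in each list. They include both backgrounds, so a higher recurrence at these loci was not detectable at this number of peaks.

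The windows held 4.66 peaks per Mb in each list, compared with 1.74 per Mb in replicate 1 and 1.70 per Mb in replicate 2 over the span from first to last peak of each chromosome. LGR5 alone supplied 4 of the 8 peaks of each list. All 7 windows held 3.49 shared regions per Mb, against 0.997 over the whole span. Without the LGR5 window, the other 6 held 2.72 peaks per Mb in each list and 2.04 shared regions per Mb. The windows were placed around genes, for MYC mostly over a gene-poor stretch upstream, and were chosen with results of these lists known. The densities are a description without a test.

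**Figure D1:**
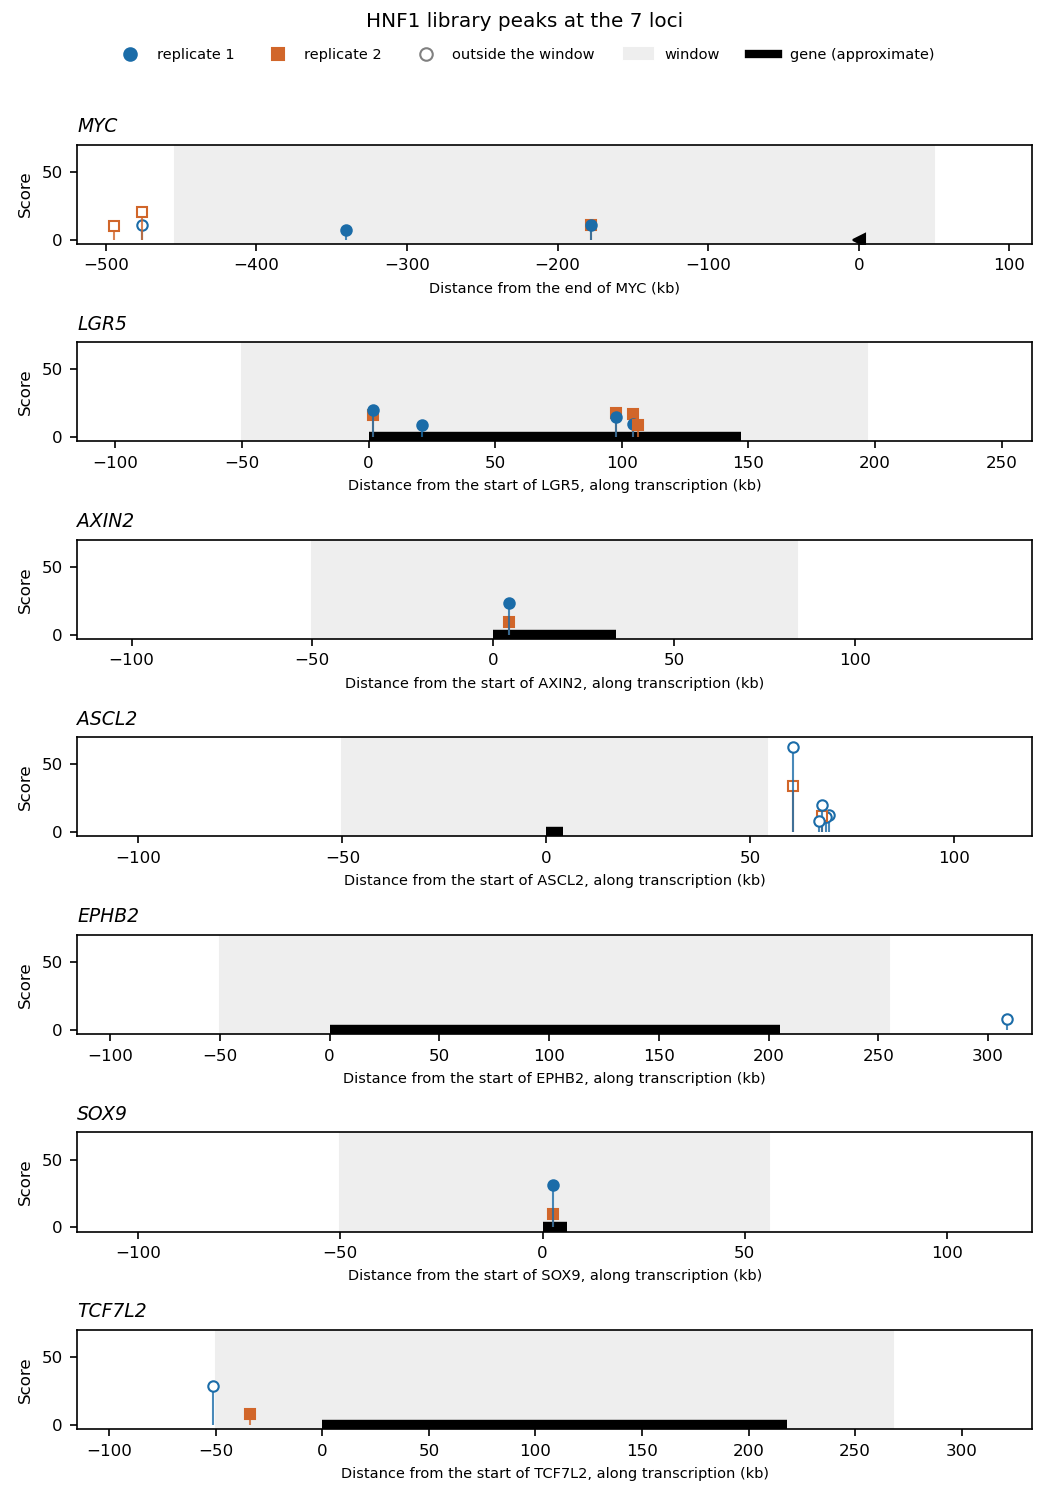
Peaks at the 7 loci by distance in kb (x axis; from the approximate start of the gene along transcription, for MYC from the end of the gene, marked by a triangle) and by score (y axis, scaled tags per peak). Circles are replicate 1, squares replicate 2, open symbols peaks outside the window; LGR5, AXIN2 and SOX9 carry peaks of both replicates inside the gene, whereas the ASCL2 and EPHB2 windows are empty.

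LGR5 encodes a receptor for R-spondins, secreted proteins that strengthen Wnt signalling, and marks the stem cells of the crypt base. It is transcribed toward higher coordinates on chromosome 12. All peaks of its window lay within the gene. The distances given here take each gene to end 50 kb inside its window, which follows from general knowledge of where the genes lie in hg19, holds to about 1 kb and is not taken from an annotation. Exons, introns and UTRs are accordingly not assigned.

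The first shared LGR5 region lay at chr12:71834654-71834880, about 1.8 kb after the start of the gene. Its score was 20 in replicate 1 and 16 in replicate 2. The score was read as the authors' tag count of a peak, scaled to 10000000 tags per library. Of the replicate 1 list, 20.8% of peaks scored higher, and of the replicate 2 list 23.6% did. The midpoints of its 2 peaks were 8 bp apart, the closest of the 6 pairs at these loci.

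The other shared LGR5 regions lay deep in the gene. The region at chr12:71930683-71930915, about 98 kb after the start, had scores of 15 and 18 in replicates 1 and 2. A region at chr12:71937359-71937589, about 105 kb after the start, had scores of 10 and 17. In this pair of regions replicate 2 had the higher score, whereas replicate 1 was higher near the start of the gene. The 95% counting intervals of the 2 replicates overlapped in all 3 LGR5 regions, for the last from 5.16 to 17.5 in replicate 1 and from 11.6 to 24.1 in replicate 2. These intervals treat tags as independent and cover counting error only.

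Each list also had 1 LGR5 peak of its own. Replicate 1 had a peak scored 9 at chr12:71854121-71854263, about 21 kb after the start and 19.4 kb from the nearest replicate 2 peak. Replicate 2 had a peak scored 9 at chr12:71939291-71939517, only 1.93 kb beyond its neighbour in the same list and 1.89 kb from the nearest replicate 1 peak. Replicate 1 thus had no call beside this neighbour, and the second library had none at the 21 kb site.

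The 3 shared LGR5 regions spanned 102.7 kb between midpoints. Among all 2905 shared regions, 15.1% had at least 2 other shared regions within 103 kb, a distance taken from LGR5 itself. These were 440 regions counted singly, those of LGR5 among them. The others could lie on either side of a region, so groups spread wider than at LGR5 also count. Outside the window, the nearest peak was 249.9 kb away in replicate 1 and 225.8 kb away in replicate 2, and neither of these had a partner. In the RefSeq gene order of GRCh38.p14, used for names only, the protein-coding neighbours of LGR5 are TSPAN8 and ZFC3H1.

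AXIN2 encodes a scaffold of the complex that marks beta-catenin for breakdown. It is itself switched on by Wnt signalling and serves as a read-out of the pathway. The gene is transcribed toward lower coordinates on chromosome 17. Its window held 1 shared region, at chr17:63553553-63553779, about 4.3 kb inside the gene from its start. The score was 23 in replicate 1, where 17.0% of the list scored higher, and 9 in replicate 2, where 63.9% did. The replicate 1 value corresponds to about 27.4 tags and the replicate 2 value to about 16.6 tags. The site stood alone, with the nearest other peak of either list 672 kb away.

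SOX9 encodes a transcription factor of crypt stem cells and Paneth cells, whose expression in the gut depends on Wnt signalling. Its window, further along chromosome 17, held 1 shared region at chr17:70119362-70119588. The site lay about 2.5 kb after the start of this short gene and thus inside it. It had the highest score at these loci in replicate 1, 31, which 8.32% of that list exceeded. In replicate 2 it scored 10, which 54.5% of the list exceeded. The nearest other peaks were 278.7 kb away in replicate 1 and 280.7 kb away in replicate 2.

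The 2 chromosome 17 sites differed most between the replicates. The counting intervals did not overlap at AXIN2, with 15.2 to 33.4 in replicate 1 and 5.21 to 14.5 in replicate 2. They did not overlap at SOX9 either, with 21.8 to 42.7 and 5.97 to 15.7. In how many of all 2907 shared pairs the intervals are apart was not counted. The log2 ratio of replicate 1 over replicate 2 was 1.35 at AXIN2 and 1.63 at SOX9, against a median of 0.17 over all 2907 shared pairs and of 0.39 over the 107 pairs on chromosome 17. A higher ratio was found in 2.58% of all pairs for AXIN2 and in 0.998% for SOX9. At least as high a ratio was found in 9.35% and 3.74% of the pairs on chromosome 17. At LGR5 the ratios were 0.32, -0.26 and -0.77. For the last, 7.09% of all pairs had a lower ratio. On chromosome 12, 91.9% of the 136 pairs had a ratio at least as high. The headers gave a peak size of 142 bp for replicate 1 and 226 bp for replicate 2, and fragment lengths of 76 bp and 226 bp. The part of these differences and of the chromosome in the ratios was not tested.

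**Figure D2:**
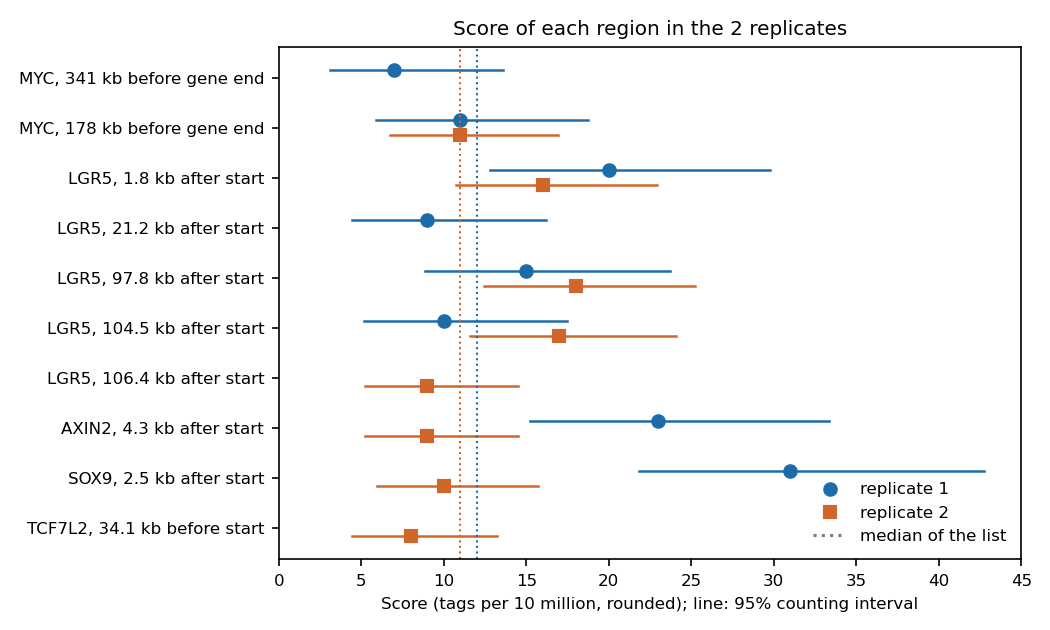
Score of each of the 10 regions (x axis, scaled and rounded tags) in replicate 1 (circles) and replicate 2 (squares), with 95% counting intervals as lines and the median of each list dotted. The intervals are apart at AXIN2 and SOX9 and overlap at the other 4 shared regions, and the 4 regions with a single symbol score 7 to 9. How often intervals are apart over all shared pairs was not counted.

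MYC encodes a transcription factor that drives growth and division and is a target of Wnt signalling in colorectal tumours. Its window reached far to the lower coordinate side, over the gene-poor stretch that holds distal enhancers of the gene. The gene is transcribed toward higher coordinates, so these sites lie upstream of it. The shared region of the window lay at chr8:128575862-128576088, about 178 kb before the end of the gene. It scored 11 in both replicates, below the median of 12 of the replicate 1 list and at the median of 11 of the replicate 2 list. Midpoints were 39 bp apart, and the whole replicate 1 peak lay inside that of replicate 2.

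A second MYC peak, at chr8:128413173-128413315, was called in replicate 1 alone. It lay about 341 kb before the end of the gene. Its score of 7 was the lowest at these loci, and 94.9% of its list scored higher. The nearest replicate 2 peak was 135.4 kb away. In this window the 178 kb site was the closest to MYC, and no peak was called in the gene itself. The nearest peaks outside the window formed a shared pair 22.2 kb beyond its far edge in replicate 1 and 22.1 kb in replicate 2, at chr8:128277768-128277910 in replicate 1. This pair had scores of 11 and 20, and the replicate 2 score was above that of every member in its list. Replicate 2 had a further peak 40.3 kb beyond the edge, with a score of 10 and no partner. The protein-coding neighbour of MYC on its lower coordinate side is POU5F1B in the RefSeq order. Where POU5F1B lies relative to these sites was not determined, since no hg19 annotation was used.

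TCF7L2 encodes TCF4, the main partner of beta-catenin on DNA in the intestinal epithelium. Its window held no replicate 1 peak and 1 replicate 2 peak, at chr10:114675800-114676026, about 34 kb before the start of the gene. This peak scored 8, which 75.1% of the list exceeded. Just outside the window, by 1.13 kb, replicate 1 had a peak scored 29 at chr10:114658798-114658940, which 9.86% of its list exceeded. It had no partner either, and the midpoints of the 2 peaks were 17.0 kb apart. No peak was called in the gene, and on this upstream side VTI1A is the neighbouring protein-coding gene in the RefSeq order.

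ASCL2 encodes a transcription factor that acts with beta-catenin and TCF4 in crypt stem cells. Its window of 104 kb held no called peak. The nearest peaks lay just outside it, 6.46 kb beyond the edge in replicate 1 and 6.44 kb in replicate 2. They formed a shared region with scores of 63 and 34, more than any member in either list, at chr11:2232469-2232611 in replicate 1. Only 1.01% of replicate 1 peaks and 3.29% of replicate 2 peaks scored higher. A further shared pair, 13.6 kb beyond the edge in both replicates, scored 20 and 12. The other 3 replicate 1 peaks nearby, scored 13, 11 and 8, had no partner. Since ASCL2 is transcribed toward lower coordinates, these sites lay about 60 to 69 kb past its start and beyond its end, on the side of TH, the neighbouring protein-coding gene in the RefSeq order.

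EPHB2 encodes a receptor for ephrin-B ligands that positions cells along the crypt axis and is a target of beta-catenin and TCF4. Its window of 305 kb held no called peak either. The nearest peak lay 53.8 kb outside in replicate 1, with a score of 8 and no partner, and 738 kb outside in replicate 2. For ASCL2 and EPHB2, a count of 0 states that nothing passed the calling limits and not that the factor is absent.

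Scores at these loci were spread around the middle of the lists. The median score of the members was 13 in replicate 1 (range 7 to 31), against 12 over its list, and 10.5 in replicate 2 (range 8 to 18), against 11. In each replicate 4 of 8 members, or 50%, scored at or above the list median, against 52.5% of the whole list in replicate 1 and 54.5% in replicate 2. Of the 6 shared pairs, 3 scored higher in replicate 1, 2 in replicate 2 and 1 alike. Over all shared pairs, 56.0% scored higher in replicate 1 and 36.2% in replicate 2. Midpoints of the 6 pairs at these loci were a median of 37.5 bp apart, against 27 bp over all pairs.

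**Figure D3:**
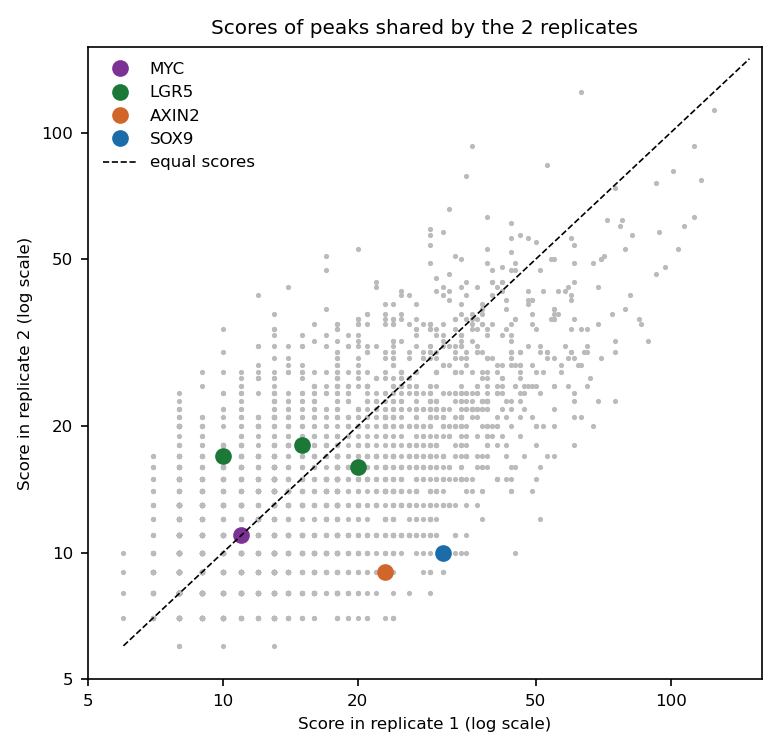
Scores of the shared pairs of peaks, 2907 in all, in replicate 1 (x axis, log scale) and replicate 2 (y axis, log scale). The 6 pairs at LGR5, AXIN2, SOX9 and MYC are coloured and equal scores dashed. The axes end below the highest score of the replicate 1 list, 275, so any pair beyond them is not drawn. MYC lies on the dashed line, the LGR5 pairs lie on either side of it, and AXIN2 and SOX9 lie below it, near the edge of the grey points.

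The 4 members without a partner were the low ones. They scored 7 and 9 in replicate 1 and 9 and 8 in replicate 2, whereas the shared members scored 10 to 31 in replicate 1 and 9 to 18 in replicate 2. In replicate 1 the 2 kinds did not overlap, and in replicate 2 the AXIN2 peak, scored 9, equalled the LGR5 peak found there alone. Converted to scores, the tag thresholds for calling were 7.54 (replicate 1) and 7.04 (replicate 2). The members without a partner thus lay close to the calling limit of their own list. Whether the missing partners reflect this limit or the sites themselves was not tested. Over the whole lists, 30.8% of replicate 1 peaks scored 7 to 9 had a partner and 32.3% of such replicate 2 peaks did, against 71.4% and 73.6% of those scored 10 or more. The bounds of 7 and 9 equal the lowest and highest score of the 4 members without a partner. With bounds that match the members, the split at these loci followed the direction found in both lists as a whole.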

How the data were processed

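ChIP-seq peak lists of the 2 libraries labelled HNF1 were used as deposited. The genome build was hg19, and Bowtie 1.0.0 and HOMER 1.2 are named, per the submitters' processing notes. Per the file headers, the authors called peaks on each library alone with HOMER findPeaks against an input (false discovery rate 0.001, at least 4-fold over input and over the local 10000 bp). Replicate 1 had 11931439 tags and replicate 2 had 18469659, and peak sizes were 142 bp and 226 bp. The deposited score was read as the rounded tag count scaled by the authors to 10000000 tags. Its sum over a list, divided by the tags in peaks that the header gives after the same scaling, was 1.002 and 1.006. The tag thresholds of the headers, 9 and 13, equal scores of 7.54 and 7.04 on this scale. The lowest score was 6 in each list, so the reading does not hold exactly for low scores. One tag was worth 0.838 in replicate 1 and 0.541 in replicate 2.

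Midpoints were assigned to windows, and peaks overlapping by 1 bp or more were paired. Deposited starts count from 0, and printed positions count from 1. Counting intervals are 95% Poisson intervals by the exact formula, taken at the tags a score stands for under the reading above. Those tags are not whole numbers and the reading is not exact for low scores, so the intervals are approximate. The counting was checked on simulated lists. All 7 loci are named. The members and settings were chosen with earlier results of these data known. A planned motif search in promoters was not run. It was meant for LGR5, AXIN2 and SOX9, the loci with a peak within 5 kb of the start. The promoter sequences at hand held none for these genes. Other genes of the pathway were not analysed here, since no hg19 annotation was used. Settings varied were the window rule, the overlap rule, the score limit and the set of windows. Python 3.11.15, numpy 2.4.6, scipy 1.17.1 and matplotlib 3.10.9 were used.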

Additional observations from a re-analysis of the deposited data

How the results depend on the processing

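Of 48 recomputed values, 37 stayed within 1.5 times a count, the interval of a share or 1 SD between the replicates of a median score (1.77). The interval of a share, 34.9% to 96.8%, is wide, so staying within it says little. Requiring overlap of 50% of both peaks or midpoints within 500 bp left all 6 shared regions. With only peaks at or above the median score of each list, 4 peaks of each replicate and 2 shared regions, both at LGR5, remained by construction, with median scores of 21.5 and 16.5. The shared share then fell from 75% to 50% in each replicate, inside that wide interval. Widening each window by 50 kb gave 15 peaks in replicate 1, most of the added ones near ASCL2. Without the MYC window the median score of replicate 1 was 17.5. Without the LGR5 window, a setting chosen after seeing the data, 4 peaks of each replicate and 3 shared regions were left and the median score of replicate 1 was 17. No paired analysis was possible because only the 2 immunoprecipitations have a peak list and they form 1 group. No replicate could be left out, since recurrence needs both lists. The number of peaks, 8 per list, limits the precision of both shares, and the effect of sequencing depth was not tested.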
